A study of Arabidopsis thaliana with 4 samples.

Results

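Plates TA52 to TA59 form a block of array tiles in which the H3K9me3 score changed from one stretch to the next. Stretches above the median of all tiles alternated with stretches below it that were longer on average. Before the block lay a long low-scoring stretch, and after it tiles of ordinary level. The block was taken from the deposited score table as all tiles whose identifier gives set TA, a plate number from 52 to 59, a well row from A to H and a well column from 1 to 12, with a score on all arrays. Of 768 such identifiers 767 had a score (TA56D12 had none), out of 21716 scored tiles on 231 plates. The plates were marked off by their level of this same score, so every difference in level between the block and other plates is a description, with no test.

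The material was chromatin of untreated Arabidopsis thaliana seedlings of ecotype Col-0, a common laboratory strain, with a labelled age of 10 days, grown for 10 to 11 days in liquid MS medium of 0.5 times strength at 22 °C and 16 h of light. DNA precipitated with an H3K9me3 antibody, directed at the trimethylated lysine 9 of histone H3, was hybridised together with input DNA on 2-colour tiling arrays, with 15 µg given in the labels for each extract. There was 1 group of 4 arrays and no mutant or treated group: chromatin preparations I and II were each hybridised as a dye-swap pair. Both arrays of a pair carried identical deposited scores, so each pair counted as 1 replicate and n = 2 preparations throughout. The labels do not say whether these came from separate cultures, and whole seedlings mix all their cell types.

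Trimethylation of lysine 9 is a mark on the tail of histone H3. In animals it is bound by HP1 proteins and is known for condensed, silent chromatin. In Arabidopsis transposons and pericentromeric chromatin are marked mainly by the dimethylated form, while the trimethylated form has been described mostly over genes in euchromatin. In an immunoprecipitation array each tile reports how the DNA of one stretch of the genome was represented in the precipitate relative to input, so that neighbouring tiles read neighbouring DNA where tiles are numbered along the genome. None of the 767 tile identifiers matched an identifier, symbol or accession in the TAIR10.1 gene table, and no tile here has a gene name, genome position or base sequence.

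Every score is given relative to the median of all scored tiles of its preparation, in score units, and a mean score is the mean of both preparations. The log base of the score and its direction, precipitate over input or the reverse, are not given in the sources used here. Higher and lower are thus statements on the score and not on the amount of the mark, and no fold change is given. The deposited medians over all tiles were -1.09 (I) and -1.35 (II). The files used here hold no spot brightness, so no tile could be set against background, and the number of arrays limits the precision.

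The block as a whole lay below the median of all tiles and spread nearly as widely as the series. Its median was -0.22, with -0.21 in preparation I and -0.21 in preparation II. This level depends on the zero, and it was -0.07 when scores were measured from each preparation's mode. On plates TA37 to TA51, just before it, the median was -0.44 over 1352 tiles, and on plates TA60 to TA99, after it, 0.05 over 3836 tiles. The SD across tiles was 0.60 in the block, 0.34 on plates TA37 to TA51, 0.62 on plates TA60 to TA99 and 0.64 in the whole series. The 10th percentile of the block, at -0.68, lay next to that of the preceding plates (-0.69), whereas its 90th percentile was 0.64 against -0.05 there. On plates TA60 to TA99 these percentiles were -0.47 and 1.07. The block thus had a 10th percentile like that of the plates before it and a 90th percentile between those of both neighbours. Other measures of the low end differed from the plates before it. At -0.5 or less stood 22.8% of block tiles, against 38.7% on plates TA37 to TA51. At -1 or less stood 1.43%, against 0.444% there.

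A score of at least 1 was reached by 48 block tiles (6.26%), against 11.9% of all 21716 tiles. At the lower end 11 block tiles (1.43%) were at -1 or less, against 0.327% of all tiles. These shares follow from the scores that chose the plates, and nothing is read from them. The lower count rests on the preparation used, with 8 tiles in preparation I alone and 22 in preparation II alone, and it was 5 when the mode of each preparation served as the zero. By limma, fitted over all 21716 tiles with a Benjamini-Hochberg adjusted p under 0.05, 154 block tiles (20.1%) were called higher than the median and 339 (44.2%) lower. Over all tiles 31.6% were called higher and 25% lower. The mode lay 0.18 below the median in preparation I and 0.12 below it in preparation II. Measured from the mode, 183 block tiles were called higher and 183 lower, so that 50% of the block's calls were higher in place of 31.2%. Over all tiles this share moved likewise, to 76.4% in place of 55.8%.

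**Figure D1:**
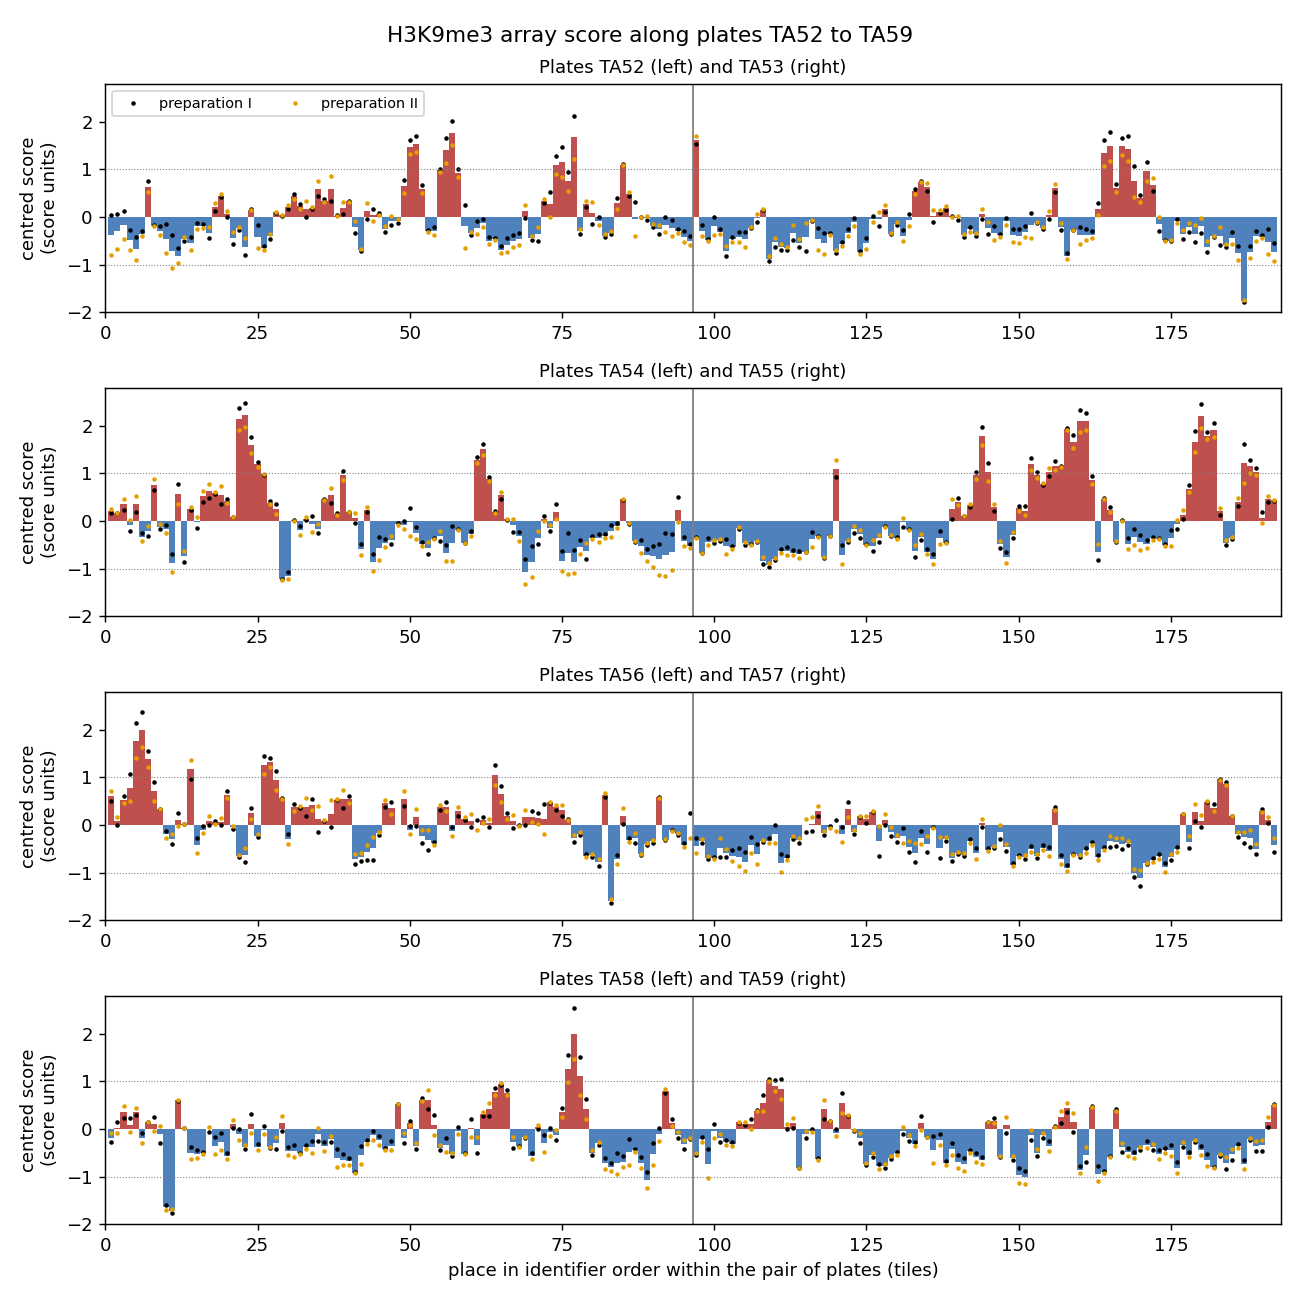
Centred H3K9me3 score (vertical axis, score units) of the 767 tiles of plates TA52 to TA59 in identifier order (horizontal axis, tiles), with a pair of plates per panel and a vertical line between them. Bars are the mean of both preparations (red above 0, blue below), black and orange points are preparations I and II, and dotted lines mark 1 and -1. High tiles stand in short runs, most densely from the middle of TA55 to the start of TA56, and 203 tiles from TA56F05 to TA58G03 stay under 1.

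The level moved up and down from plate to plate rather than along a single slope. The plate medians were -0.14 on TA52, -0.32 on TA53, -0.11 on TA54, -0.31 on TA55, 0.10 on TA56, -0.39 on TA57, -0.26 on TA58 and -0.35 on TA59. Only TA56 of these 8 plates had a median above 0 in the mean and in each preparation. Just outside the block, TA51 had -0.41 and TA60 had 0.32. In both preparations, 5 of the 8 plates had a median more than 0.2 under the median of all tiles: TA53, TA55, TA57, TA58 and TA59. With a limit of 0.1 there were also 5, and with a limit of 0.3 only TA57 was left. On plates TA52 to TA56 the joint median was -0.15, and 44 of 479 tiles reached 1. On plates TA57 to TA59 it was -0.34, and 4 of 288 tiles reached 1.

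**Figure D2:**
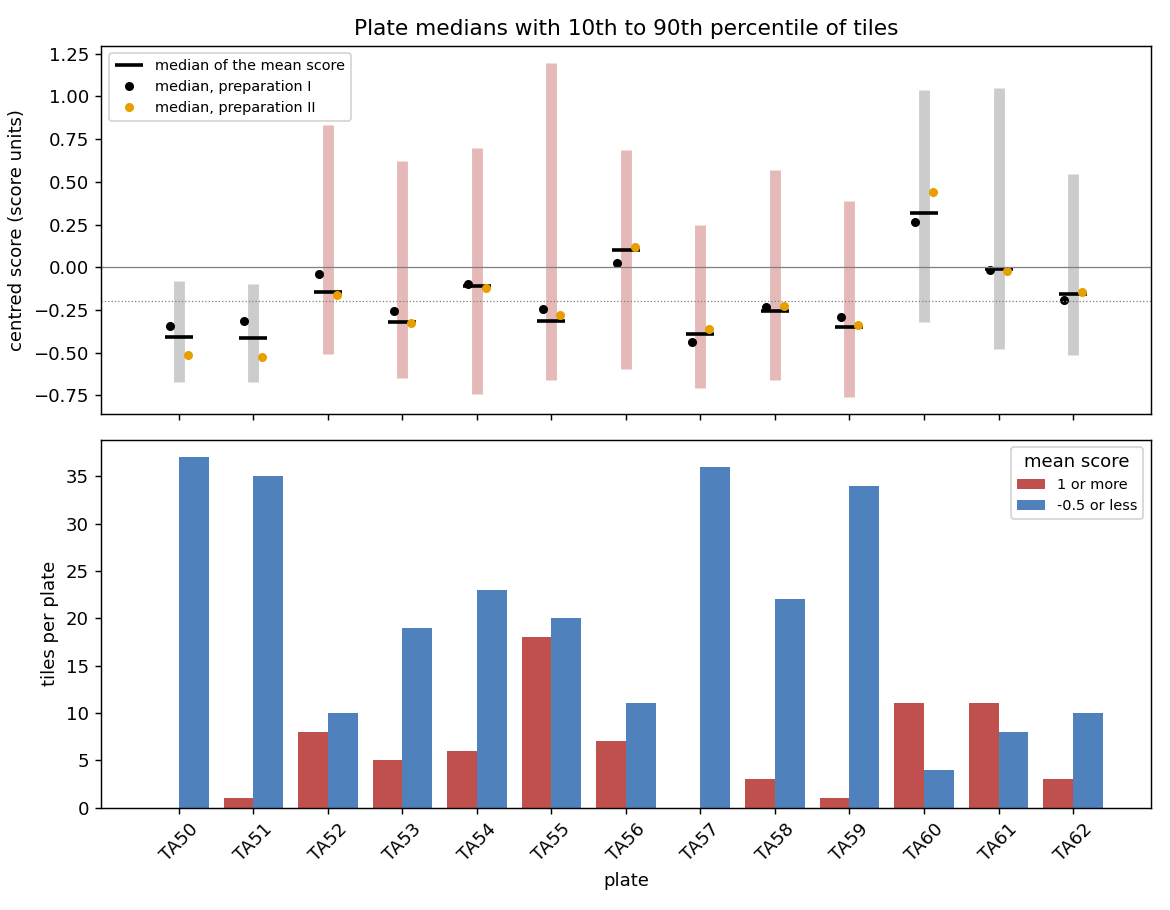
Upper panel: plate medians of the centred score (score units), as a black bar for the mean of both preparations and points for preparations I (black) and II (orange), with shaded lines from the 10th to the 90th percentile of the plate's tiles; plates of the block are red, neighbouring plates grey, and the dotted line marks -0.2. Lower panel: tiles per plate with a mean score of 1 or more (red) and of -0.5 or less (blue). TA55 combines a median of -0.31 with 18 high tiles, and TA57 has no tile at 1 or more and 36 at -0.5 or less.

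Plates with like medians could differ in make-up. TA53, TA55 and TA59 had medians from -0.35 to -0.31, yet they held 5, 18 and 1 tiles at 1 or more. TA55 was the most divided plate of the block, with the largest SD across tiles (0.81) and the fewest tiles without a limma call (18 of 96). TA56 had a higher median than TA55 and fewer high tiles (7 of 95), and its tiles were spread around 0 with an interquartile range from -0.26 to 0.41. TA57 was the most uniform, with an SD of 0.39, and it held 36 tiles at -0.5 or less and none at 1 or more.

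Within plates the level differed from one well row of 12 tiles to another. Of 64 well rows 43 had a median below 0, 25 were below -0.3 and 7 were above 0.3. The lowest rows were TA57G (-0.67), TA55B (-0.65) and TA57A (-0.60). The highest were TA52E (0.78), TA55F (0.67) and TA56A (0.57). Plate TA55 therefore held a row near the lowest and a row near the highest of the block. Tiles at 1 or more occurred in 20 of the 64 rows. Pooled over all 8 plates, row medians ran from -0.33 (row G) to -0.11 (row F), and column medians from -0.36 (column 6) to 0.02 (column 12).

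The 48 high tiles formed 22 runs of adjacent tiles with a mean length of 2.18. There were 8 single tiles, 8 pairs and 6 runs of at least 3 tiles, and these 6 runs held 24 of the 48 tiles (50%). In the whole series the mean run length was 2.06 and runs of at least 3 held 49.4% of high tiles. The block had 2.87 such runs per 100 tiles, against 0.44 on plates TA37 to TA51, 5.47 on plates TA60 to TA99 and 5.77 in the whole series. Runs were therefore fewer than in the series as a whole, with a mean length close to that of the series. No test was made of this, since the plates were chosen by the same scores. At the very top the share was close to the background, with 6 block tiles (0.782%) at 2 or more against 0.806% of all tiles.

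The longest high run went from TA55E11 to TA55F05. The mean over its 7 tiles was 1.67 ± 0.55 for preparation I, against 1.51 ± 0.40 for preparation II (SD over the tiles). The score was 1.03 at TA55E11, 2.10 at TA55F04 and 2.09 at TA55F05, then 0.87 at the next tile and -0.64 at the one after that. Counting tiles at 0.5 or more, the run lengthened to 11 tiles, TA55E08 to TA55F06. The tile before those 11, TA55E07, scored 0.22 and TA55E08 scored 1.19.

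Another run on the same plate, TA55G11 to TA55H02, held 4 tiles and the highest tile of the plate. TA55G12 scored 2.46 and 1.95 in preparations I and II (mean 2.20 ± 0.37, SD, n = 2). The mean over the 4 tiles was 2.07 for preparation I, against 1.72 for preparation II. Before them stood 0.67 and after them 0.20. Together with TA55H07 to TA55H09 (mean 1.13) and TA56A05 to TA56A07 (mean 1.72), it lay in a stretch dense in high tiles. From TA55D12 to TA56A07, a stretch picked after its values were seen, 20 of 56 tiles were at 1 or more, which is 41.7% of the high tiles of the block. It crossed from one plate to the next: TA55H12 scored 0.43 and TA56A01 0.61.

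The highest tile of the block was TA54B11, with 2.47 and 1.97 in preparations I and II (mean 2.22 ± 0.36, SD, n = 2). Its neighbours TA54B10 and TA54B12 had means of 2.13 and 1.60. The run of 4 tiles, TA54B10 to TA54C01, began abruptly, from 0.08 at the tile before it, and declined over several tiles, to 0.98 just after it. A few tiles further, TA54C05 and TA54C06 scored -1.23 and -1.15, with 0.25 before and 0.01 after them. The highest tile of the block, TA54B11, thus lay 6 and 7 places before TA54C05 and TA54C06, which were among its 10 lowest.

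Near the start of plate TA56 lay the run TA56A05 to TA56A07, with a mean over its 3 tiles of 2.02 in preparation I, and 1.42 in preparation II. Its highest tile, TA56A06, scored 2.36 and 1.63 in preparations I and II. Runs on TA52 were shorter. The 8 high tiles of that plate lay in 5 runs of 1 or 2 tiles, and the highest, TA52E09, had a mean of 1.76 ± 0.37 (SD, n = 2). On TA53 the highest tile was TA53A01, at 1.53 and 1.69, which stood alone between -0.50 at TA52H12 and -0.29 at the next tile. It was the sole tile among the 8 plate maxima that scored higher in preparation II than in preparation I.

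After TA56F04 no tile reached 1 for 203 tiles, until TA58G04. The median over this stretch was -0.30, and 146 of the 203 tiles were below 0. Its highest tile, TA57H03, which was also the highest of plate TA57, scored 0.97 in preparation I and 0.95 in preparation II. The stretch ended with the run TA58G04 to TA58G06, 3 tiles with a mean of 1.87 in preparation I, and 1.06 in preparation II. The median of all 21 gaps between high runs was 11 tiles. The last high tile of the block was TA59B01, at 1.06 and 1.02, the highest tile of plate TA59.

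**Figure D3:**
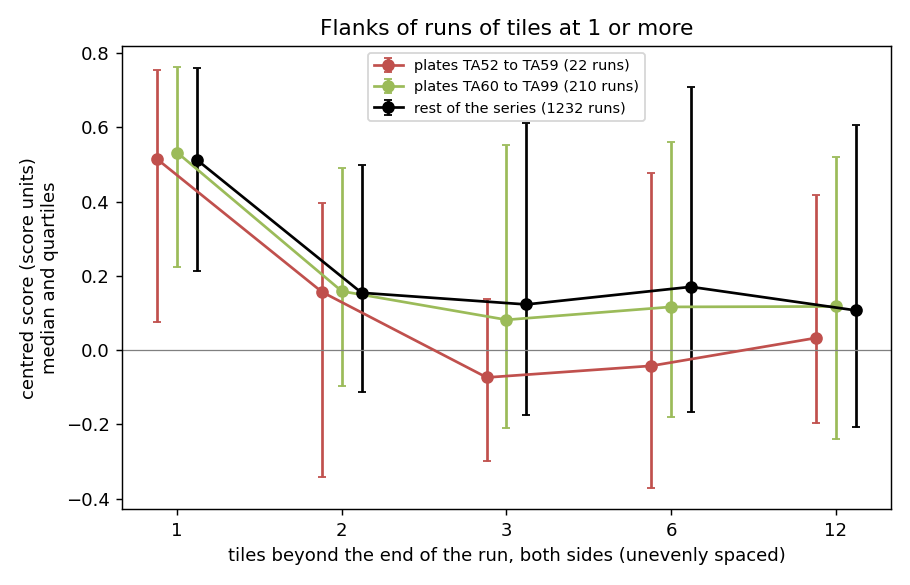
Median centred score (points, score units) and quartiles (bars) of tiles 1 to 12 places beyond either end of a run of tiles at 1 or more, for the 22 runs of plates TA52 to TA59 (red), the 210 runs of plates TA60 to TA99 (green) and the runs of the rest of the series (black). One tile out the medians lie close together, at 0.51 in the block and 0.53 on plates TA60 to TA99, and 3 tiles out they lie at -0.07 and 0.08.

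Scores fell off within a few tiles of the high runs. A run ends where the score drops under 1, so a lower tile directly outside it follows from that rule. The tile directly outside a run had a median score of 0.51 in the block and 0.53 on plates TA60 to TA99. With 2 tiles of distance the medians were 0.16 and 0.16. With 3 tiles they were -0.07 in the block and 0.08 on plates TA60 to TA99, with 6 tiles -0.04 and 0.12, and with 12 tiles 0.03 and 0.12. Up to 2 tiles out the medians were thus alike. The lower quartiles there were lower in the block, at 0.08 and -0.34, against 0.22 and -0.10 on plates TA60 to TA99. From 3 tiles out the medians were lower in the block, near the median of all tiles and above the block's own median of -0.22. These flanks include tiles of neighbouring runs.

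Low tiles formed runs too. At -0.5 or less stood 175 block tiles (22.8%), against 11.2% of all tiles, and they made 87 runs, of which 21 held at least 3 tiles. The longest were 2 runs of 8 tiles. In TA55A12 to TA55B07 the means were -0.72 and -0.74 in preparations I and II, with the lowest tile at TA55B01 (-0.92). In TA57G01 to TA57G08 they were -0.81 and -0.79, with the lowest tile at TA57G02 (-1.11). Both runs had almost the same level in the preparations, and their tiles lay between -1.11 and -0.51.

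Taking all tiles below 0, the longest stretch had 25 tiles, from TA54H11 across the plate boundary to TA55B11, with a mean of -0.54. It was ended by TA55B12, a lone tile at 0.92 in preparation I and 1.27 in preparation II. The next in length were 24 tiles from TA56H08 to TA57B07 and 24 tiles from TA59F11 to TA59H10. On plates TA37 to TA51 the longest such stretch had 102 tiles, and on plates TA60 to TA99 it had 33. In the block the mean length of a stretch below 0 was 5.72 tiles and that of a stretch above 0 was 3.16. In the whole series these lengths were 3.97 and 3.98. All these lengths depend on the zero and are given for the median only. The plates were chosen by their level of this score, so the lengths are a description.

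The 4 lowest tiles of the block stood out from their surroundings. TA53H07 scored -1.79 and -1.75 in preparations I and II, with -0.76 and -0.74 at the tiles on either side. TA58A11 and TA58A10, which are adjacent, had means of -1.72 and -1.64, with -0.11 before and 0.60 after them. TA56G11 scored -1.64 and -1.56 in preparations I and II, with 0.63 before it and -0.72 after it. These 4 tiles repeated closely, with SDs from 0.03 to 0.07 between preparations. At -1.5 or less, a limit set after the values were seen, the block's share was 0.522%, against 0.0276% over the whole series, where 6 tiles were this low. The remaining 2 were TA06C05 and TB94B09, at -1.78 and -1.63. On the other plates of the block the lowest tiles were TA52A12 (-0.81), TA54C05 (-1.23), TA55B01 (-0.92), TA57G02 (-1.11) and TA59E07 (-1.02). Each of these had an adjacent tile close in score, at -0.72, -1.15, -0.84, -1.01 and -0.97 in the same order.

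At the start of the block the adjacent tiles had like scores: TA52A01, its first tile, had a mean of -0.38, and TA51H12, the last tile before it, had -0.40. Row A of TA52 had a median of -0.37, against -0.33 in the last row of TA51. The plate median was nevertheless higher on TA52 than on TA51, by 0.27. Preparations I and II disagreed at this edge, with 0.04 and -0.80 at TA52A01. At its end both the adjacent tiles and the plate medians differed. The last row of TA59 had a median of -0.45, and its final tile, TA59H12, already stood at 0.51. TA60A01, the first tile after the block, scored 1.31, and the first row of TA60 had a median of 0.37. The step in plate median from TA59 to TA60 was 0.67, where the median size of a step between consecutive plates of the series was 0.16 over 224 pairs. Of these pairs 2, this one included, had a step of at least that size.

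Inside the block the plate boundaries fell at no common kind of place. At 5 of the 7 inner boundaries the tiles on both sides had the same sign, as from TA54H12 (-0.52) to TA55A01 (-0.35) and from TA55H12 (0.43) to TA56A01 (0.61). The widest break was from TA52H12 (-0.50) to TA53A01 (1.61), the lone high tile described above. From TA53H12 to TA54A01 the score changed from -0.74 to 0.21.

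**Figure D4:**
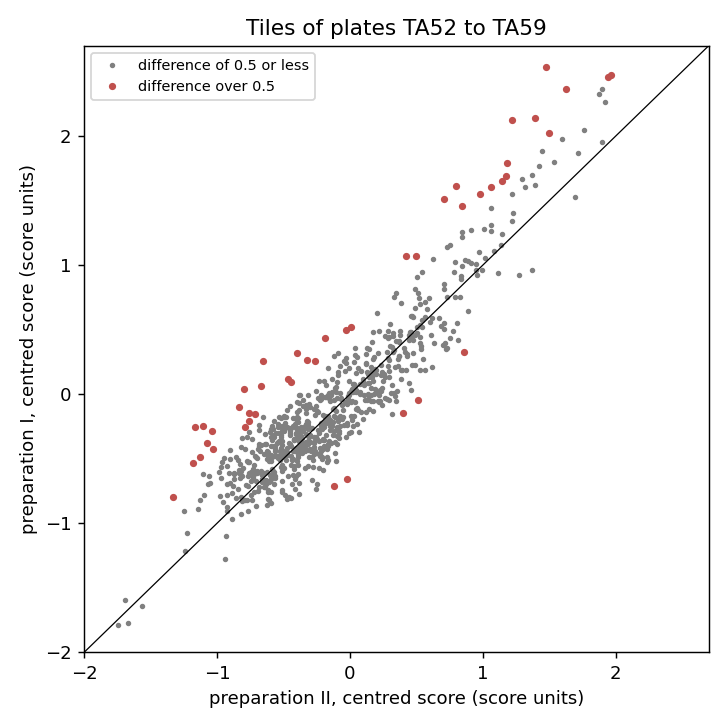
Centred score in preparation I (vertical axis) against preparation II (horizontal axis), in score units, for the 767 tiles of the block, with the line of equal scores. Red points are the 46 tiles whose preparations differ by more than 0.5, of which 41 lie above the line. The 4 lowest tiles lie close to the line, and most of the highest tiles lie above it.

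The preparations gave the same profile over the block. They correlated across its 767 tiles with a Pearson's r of 0.92 and a Spearman's rho of 0.88, against 0.92 and 0.88 over the rest of the series, and r on single plates ranged from 0.86 on TA57 to 0.97 on TA55. These are correlations across tiles, which share arrays and are not independent replicates. The sign of the score was the same in both preparations at 693 tiles (90.4%). At 1 or more in at least 1 preparation stood 58 tiles, of which 37 in both (63.8%, against 66.8% in the rest of the series). At -1 or less stood 24 tiles, of which 6 in both (25%, against 19.6% in the rest of the series).

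Where the preparations differed, preparation I was mostly the higher. The difference, preparation I minus II, averaged 0.06 with an SD of 0.25 across tiles. It exceeded 0.5 in size at 46 tiles (6.0%, against 7.2% in the rest of the series), and preparation I was higher at 41 of them. Of these 46 tiles, 15 had a mean score of 1 or more and 23 a mean score below 0. The difference was largest on average in high tiles. Among the 48 tiles at 1 or more the mean was 1.65 for preparation I, against 1.31 for preparation II, and preparation I was higher at 44 tiles. Among the 2537 such tiles of the rest of the series the averages were 1.58 and 1.32, and preparation I was higher at 2130 tiles. Between 0 and 0.5 the difference in the block was -0.03 over 166 tiles. Among the 175 block tiles at -0.5 or less it was 0.11, and preparation I was higher at 115 of them. Among the 2257 such tiles of the rest of the series it was 0.08, and preparation I was higher at 1443.

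The widest single difference was at TA58G05, with 2.54 in preparation I and 1.47 in preparation II. TA54H08 followed, with -0.25 and -1.16, and then TA52E11, with 0.26 and -0.65. In the other direction stood TA57C07 (-0.66 in preparation I and -0.02 in preparation II), TA53B07 (-0.71 and -0.12) and TA56D01 (-0.05 and 0.51). Some of these tiles lay in stretches that differed together. In row A of TA52, at the start of the block, preparation I was higher at all 12 tiles, by 0.44 on average (SD 0.26 across tiles). In row H of TA54 the mean difference was 0.33, and the 6 tiles TA54H04 to TA54H09 had means of -0.42 and -0.96 in preparations I and II. With 2 preparations, no test of a difference between them at a tile could be made.

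**Figure D5:**
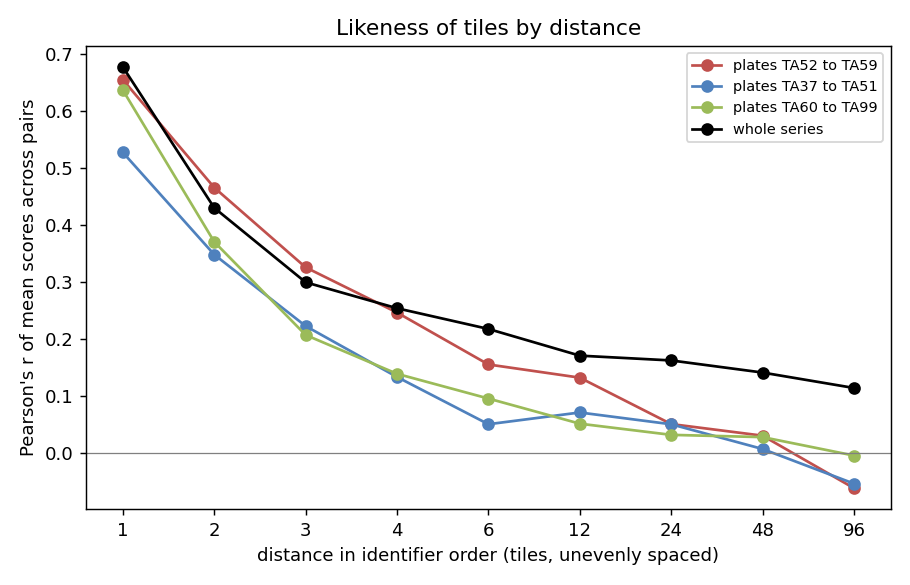
Pearson's r (vertical axis) between the mean scores of tiles 1 to 96 places apart in identifier order (horizontal axis, unevenly spaced), within plates TA52 to TA59 (red), TA37 to TA51 (blue), TA60 to TA99 (green) and the whole series (black). The block starts at 0.65 and the whole series at 0.68. For 24 tiles the block and plates TA37 to TA51 lie at 0.05, plates TA60 to TA99 at 0.03 and the whole series at 0.16.

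Adjacent tiles of the block had like scores. Over 765 adjacent pairs r was 0.65, and a tile in preparation I correlated with the next tile in preparation II with r = 0.61. Single plates ranged from 0.50 on TA59 to 0.78 on TA55. The correlation was 0.47 with 2 tiles of distance, 0.33 with 3 tiles, 0.16 with 6 tiles and 0.05 with 24 tiles. On plates TA60 to TA99 it was 0.64 between adjacent tiles and 0.37 and 0.21 with 2 and 3 tiles of distance. In the whole series it was 0.68, 0.43 and 0.30 with 1, 2 and 3 tiles of distance. With 96 tiles of distance it was -0.06 in the block, -0.05 on plates TA37 to TA51, -0.004 on plates TA60 to TA99 and 0.11 in the whole series. When the wells were ordered down the columns, r was 0.07 in the block. All these values are descriptions across pairs of tiles, which overlap and share the same arrays.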

How the data were processed

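The data were a single deposited table of signed scores for 4 2-colour arrays. The steps by which the authors made the deposited score (background correction, normalization, log base, centring and direction) are unknown (not given in the sources used here). Both columns of each dye-swap pair were identical at all 21716 scored tiles and were averaged to 1 replicate per chromatin preparation. Each preparation was centred on its median over these tiles. Per tile, limma 3.58.1 in R 4.3.3 (lmFit and eBayes) tested the 2 centred scores against 0, two-sided, with Benjamini-Hochberg adjustment over all tiles and a threshold of 0.05. Its prior degrees of freedom were infinite, so that all tiles shared an SD of 0.20 per preparation, and a mean score at least 0.31 from 0 was called. Its p-values cover only the spread of these 2 preparations, which may be technical. The step was tried on simulated tiles that were independent and had a common SD. Adjacent real tiles vary together, which that trial does not cover.

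Tiles count as adjacent when their identifiers follow each other by plate, row and column within a set, and an unscored tile ends a run. Tiles named are the highest and lowest of each plate, the 10 highest and 10 lowest of the block, the neighbours of its extremes, the longest runs at 1 or more and at -0.5 or less, the tiles at both edges and the 3 largest differences between preparations each way. Other named tiles and stretches were chosen after their values were seen. The plates, lists and limits were chosen with earlier results of these data known. Alternatives changed the centring, scaling, variance model, minimum size, order, plate limit and preparations. Python 3.11.15, numpy 2.4.6, pandas 2.3.3 and scipy 1.17.1 were used.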

Additional observations from a re-analysis of the deposited data

How the results depend on the processing

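With the mode as zero 183 block tiles were called lower in place of 339, 5 were at -1 or less in place of 11, and the block median was -0.072 in place of -0.22. With limma's treat test at a minimum of 0.5 the calls were 62 higher and 25 lower, in place of 154 and 339. The share of all tiles called by the treat test is not given here, so nothing is read from these counts about the block. With 0.5 as the minimum size there were 109 high tiles (14.2%, against 23.9% of all tiles). There were 175 low tiles (22.8%, against 11.2% of all tiles). With both preparations scaled to equal spread the median was -0.22. Leaving out 1 preparation gave medians of -0.213 to -0.212, 40 to 55 tiles at 1 or more, 8 to 22 at -1 or less (22 without preparation I), and a correlation of adjacent tiles of 0.63 to 0.65. That correlation was 0.074 in column order and 0.64 with plate medians subtracted. The correlation of preparations was 0.86 without the 5% of tiles at each end. With a limit of 0.3 low plates numbered 1 in place of 5. TA52A01, called lower at -0.38, was 0.037 without preparation II and -0.80 without preparation I. With the mode as zero 51 of 56 named tiles kept their direction and side of the limma threshold, 4 (TA51H12, TA52A01, TA53B07 and TA57C07) were no longer called and TA56D01 became called. A single preparation leaves limma no residual degree of freedom, so no calls were made there. No paired analysis was possible because there is a single group. Spot brightness, which was not used here, would be needed to tell weak spots from measured ones.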

Other observations

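Even-numbered plates of the block had higher medians than odd-numbered ones. The medians of TA52, TA54, TA56 and TA58 ran from -0.26 to 0.10 and those of TA53, TA55, TA57 and TA59 from -0.39 to -0.31, without overlap. In all 4 pairs of an even plate and the odd plate after it the even plate was higher, by 0.24 on average (SD 0.17 over pairs), with 0.22 in preparation I and 0.23 in preparation II. Over 108 such pairs of the rest of the series the mean was 0.07 (SD 0.24), and the even plate was higher in 70 of them. In the block the widest pair was TA56 over TA57, at 0.49. Even and odd plates of the block lay closer at the 10th percentile (-0.63 and -0.69 on average) and at the 90th percentile (0.70 and 0.61). The plates of the block were chosen by their medians, so no test was made, and how plate handling bears on these medians was not tested.

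The difference between preparations alternated with the well column. In the block, preparation I minus II averaged 0.09 in even columns and 0.02 in odd columns, and each of the 6 even columns (0.07 to 0.10) lay above each of the 6 odd columns (0.002 to 0.04). The even columns had the larger difference on 7 of 8 plates (mean 0.07, SD 0.08 over plates). On the 223 plates of the rest of the series the averages were 0.08 in even and 0.06 in odd columns, and even columns were larger on 129 plates. The pattern was noticed in these values and then counted in them.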
